A study of Mus musculus with 8 samples.

Results

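The Sonic hedgehog pathway was followed through 9 of its genes, chosen by name: the ligand Shh, the co-receptor Boc, the receptor Ptch1, the ligand-binding inhibitor Hhip, the transducer Smo, the cytoplasmic inhibitor Sufu and the transcription factors Gli1, Gli2 and Gli3. These 9 were among the 54752 genes listed in the count tables, and all 9 had enough reads to be tested. RNA-seq was performed on fetal brains of wild type C57BL/6 mice (substrain C57BL/6Slac in the methods of the study) at E15.5, from 4 control and 4 stress embryos, 2 females and 2 males of each. Dams of the stress group were exposed to chronic unpredictable mild stress (CUMS), a rotating series of mild stressors, during pregnancy, and dams of the control group were not. The library list of the study put the 4 control brains in one litter and the 4 stressed brains in one other, so a litter effect and a stress effect cannot be told apart, and the p-values below measure the spread between brains rather than between dams. The labels give the tissue as brain, while the library list enters it as half_whole_brain, so it is not certain whether a library held a whole brain or a portion of it, and regional markers below are read with that limit. Each brain gave between 25320109 and 29105710 counts. The neuronal transcripts Tubb3 and Map2 and the telencephalic transcript Neurod6 were abundant in every brain, while at most 3 reads of the pituitary marker Cga and the skin markers Krt5 and Krt14 were found in any brain.

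Hedgehog ligands bind Patched receptors on the primary cilium, helped by the co-receptors Boc, Cdon and Gas1. Without ligand, Patched keeps Smo off, and Gli2 and above all Gli3 are cut to shorter forms that repress target genes. With ligand, Smo becomes active, the full-length Gli proteins are released from Sufu, and targets such as Gli1, Ptch1 and Hhip are transcribed, so that the levels of these targets are widely used as a readout of the pathway. In the embryonic brain Shh is made in ventral sites such as the floor plate and the ventral forebrain, whereas Gli3 is strongest in dorsal progenitors and is needed for normal development of the cortex.

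The promoters of Gli3, Gli2 and Smo, whose control and stress values did not overlap, and of the receptor and target Ptch1 for contrast, are printed so that the genes can be compared at the sequence level. Each line holds the 250 bases before the RefSeq gene start (GRCm38.p6), 5′ to 3′ on the strand of the gene, and capitals mark CG dinucleotides. The windows are chr13:15463473-15463722 on the plus strand, chr1:119053620-119053869 on the minus strand, chr6:29735247-29735496 on the plus strand, and chr13:63565736-63565985 on the minus strand. Those of Gli3 and Ptch1 lie inside the gene spans given below, so they precede a start other than the outermost one.
Gli3: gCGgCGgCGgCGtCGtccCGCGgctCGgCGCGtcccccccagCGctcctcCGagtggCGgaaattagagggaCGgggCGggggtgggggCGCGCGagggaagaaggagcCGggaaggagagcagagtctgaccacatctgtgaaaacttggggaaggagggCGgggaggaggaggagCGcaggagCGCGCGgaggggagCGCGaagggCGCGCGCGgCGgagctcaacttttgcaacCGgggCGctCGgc
Gli2: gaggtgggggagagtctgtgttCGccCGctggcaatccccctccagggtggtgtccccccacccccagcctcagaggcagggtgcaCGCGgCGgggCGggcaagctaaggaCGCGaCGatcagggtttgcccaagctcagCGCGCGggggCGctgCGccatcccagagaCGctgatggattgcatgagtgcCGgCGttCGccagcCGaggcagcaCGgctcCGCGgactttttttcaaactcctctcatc
Smo: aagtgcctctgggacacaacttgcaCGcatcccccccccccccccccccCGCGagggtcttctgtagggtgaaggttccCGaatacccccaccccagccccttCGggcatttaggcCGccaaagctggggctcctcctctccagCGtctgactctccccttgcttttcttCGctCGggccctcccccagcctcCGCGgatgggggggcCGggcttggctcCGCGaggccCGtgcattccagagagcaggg
Ptch1: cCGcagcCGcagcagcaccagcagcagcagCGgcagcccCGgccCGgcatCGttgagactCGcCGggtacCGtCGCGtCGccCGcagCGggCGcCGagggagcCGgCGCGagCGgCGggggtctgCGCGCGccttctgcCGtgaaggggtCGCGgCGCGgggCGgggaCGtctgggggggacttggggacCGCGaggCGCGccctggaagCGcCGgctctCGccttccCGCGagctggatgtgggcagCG
CG dinucleotides numbered 34 in the Gli3 window, 22 in Gli2, 15 in Smo and 41 in Ptch1, against a median of 6 over all 32851 promoters of the same table. The bases G and C made up 72.8% of the window of Gli3, 67.2% of Gli2, 68.4% of Smo and 78.4% of Ptch1, against a median of 52.4%. Promoters of 6 of the 9 genes were matched by symbol, and Hhip and Sufu had 28 and 8 CG dinucleotides. The binding motif of the Gli factors was searched on both strands in the same windows extended by the 50 bases after the start, as the 9 letters GACCACCCA and as the core CCACCCA, which lies within the longer form. None of the 6 promoters held either form, and among all promoters 0.253% held the longer form and 9.30% the core. Other starts and more distant sequence of these genes were not searched.

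Levels were compared between genes per exon length, as FPKM (read pairs divided by the exon length in kilobases and by the scaled library size). In the control brains the order was Smo at 7.78 ± 0.322 FPKM, Boc at 7.27 ± 0.390, Sufu at 6.61 ± 0.372, Ptch1 at 5.17 ± 0.167, Gli3 at 3.87 ± 0.256, Gli2 at 2.55 ± 0.124, Gli1 at 1.34 ± 0.195, Shh at 1.24 ± 0.127 and Hhip at 0.508 ± 0.0622 (SD, n = 4 for each). The receptor complex and Sufu were thus the most abundant transcripts, and the ligand, Gli1 and Hhip the least. The pairs that overlapped in their control values were Smo with Boc, Boc with Sufu, and Gli1 with Shh. The other neighbours were separated in all 4 control brains.

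**Figure D1:**
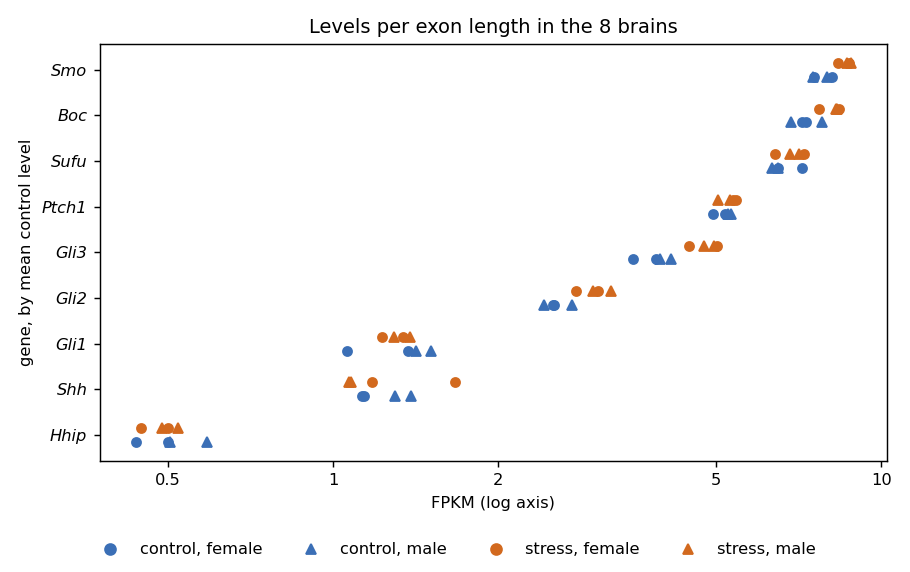
Each point is 1 brain, with FPKM on a log axis and the 9 genes ordered by their mean control level. Smo, Boc and Sufu lie highest, Gli1 and Shh overlap, Hhip lies lowest, and only for Gli3, Gli2 and Smo do the stress points lie wholly above the control points.

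Transcripts of Gli3, Gli2, Smo and Boc were higher in the stressed brains, while the ligand Shh, the inhibitor Sufu and the readout genes Gli1, Ptch1 and Hhip did not pass the test in either direction. Of the 9 genes, 4 were higher in the stressed brains at an adjusted p under 0.05 (edgeR's quasi-likelihood test, Benjamini-Hochberg adjustment over all 17865 genes tested) and 0 were lower. The background was 6.49% of all tested genes called higher and 7.27% called lower. By the fold change fitted in edgeR with sex as a covariate, Gli3 rose by 23.7%, Gli2 by 17.7%, Boc by 12% and Smo by 11%. Levels are given below as CPM (counts divided by the library size after TMM scaling). With DESeq2 the same 4 genes were called higher, where 4.19% of all genes were. The control and stress values did not overlap for 3 of the 9 genes, Gli3, Gli2 and Smo, against 16.4% of all tested genes. The median log2 fold change of the 9 genes was 0.06, that of all tested genes 0.001, and the median size of change over all genes 0.082. In bulk tissue, a change in the number of cells of a type and a change in RNA per cell cannot be told apart.

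Shh, the secreted ligand, lies at chr5:28456815-28467256 (mm10, minus strand). It was measured at 3.20, 3.24, 3.95 and 3.69 CPM in control F36, F37, M30 and M31 (F for female, M for male), and at 4.74, 3.36, 3.03 and 3.07 CPM in stress F34, F35, M28 and M29. The single highest value was that of stress F34 and the lowest were both stressed males, so the groups overlapped fully. The means were 3.52 ± 0.363 and 3.55 ± 0.808 CPM (SD, n = 4), with a log2 fold change of 0.01 (SE 0.13, 95% interval -0.27 to 0.28), an adjusted p of 0.980 in edgeR's quasi-likelihood test and an exact two-sided permutation p of 0.971. The sign turned without stress F34, to -0.18, and without control F36 or control F37, to -0.06 each. Shh rests on 85 to 131 reads per brain, and 28.3% of its exon bases overlap genes on the other strand (9530036O11Rik and Gm26894), so that part of its reads could not be assigned by the unstranded counting.

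Within the sexes, at 2 against 2 brains each, the ligand values lay in opposite directions. Both stressed females were above both control females (log2 fold change 0.34, SE 0.17) and both stressed males below both control males (-0.32, SE 0.17). The female difference rested mainly on F34. Stress F35 was at 3.36 CPM against 3.20 and 3.24 CPM in the control females, from 85 reads against 88 and 92. The sex by stress difference was -0.66 (SE 0.24, males minus females) with an unadjusted p of 0.0106 in edgeR's quasi-likelihood test, which did not pass adjustment over all genes (adjusted p = 0.633). None of the 9 genes passed for this interaction, where 0.0056% of all genes did, and at an unadjusted p under 0.05 Shh was the 1 of the 9 among 1128 genes. Floor plate markers were likewise highest in stress F34 and lowest in both stressed males: the summed CPM of the list was 152, 150, 173 and 160 in control F36, F37, M30 and M31 and 185, 154, 142 and 138 in stress F34, F35, M28 and M29. Most of this sum came from Ntn1 and Spon1, at 73.9 and 59.4 CPM in controls. None of its 7 tested genes was called, the ranges were 150 to 173 and 138 to 185 CPM, and the defining markers Foxa2 and Corin were detected at 1.88 and 1.38 CPM in controls. The part of ventral midline tissue in the Shh values was not tested. The genes most like Shh over the 8 brains, among 15249 genes with a mean of at least 1 CPM, were Fam234a (Pearson's r = 0.974), Ntn1 (0.974), which encodes the floor plate guidance cue netrin, and Itpkb (0.970), given as a description over brains of both groups. Ntn1 was at 69.1, 67.8, 83.4 and 75.4 CPM in the controls and 89.5, 69.1, 65.2 and 62.5 CPM in the stressed brains, in the same sample order.

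Boc, a co-receptor that binds the ligand at the cell surface, lies at chr16:44485049-44558897 (minus strand). Its level was 32.4, 31.9, 34.6 and 30.5 CPM in control F36, F37, M30 and M31 and 37.2, 34.2, 36.7 and 36.9 CPM in stress F34, F35, M28 and M29. All stressed brains but F35 were above every control, and F35 was below control M30 alone. The log2 fold change was 0.16 (SE 0.04, 95% interval 0.07 to 0.26), with an adjusted p of 0.0142 in edgeR's quasi-likelihood test and an exact permutation p of 0.0571. The call was lost without control M31 (adjusted p = 0.0759) or without stress F34 (adjusted p = 0.0631).

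The related co-receptors were read from a list of 5 other receptor genes. Cdon, the closest relative of Boc, rose from 77.9 to 93.1 CPM (log2 fold change 0.26, adjusted p = 3.44e-05 in edgeR's quasi-likelihood test), and Gas1, a membrane-anchored co-receptor, from 29.6 to 32.6 CPM (0.14, adjusted p = 0.0274). Both had no overlap between groups, although 19.9% of the exon bases of Gas1 are shared with another gene. None of the 5 was called lower.

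Ptch1, the receptor and a transcriptional target, lies at chr13:63508328-63573598 (minus strand). It was at 69.9, 73.5, 75.4 and 74.3 CPM in control F36, F37, M30 and M31 and at 76.0, 77.0, 71.5 and 75.0 CPM in stress F34, F35, M28 and M29. The groups overlapped, with the lowest value in a control and the highest in a stressed female. The log2 fold change was 0.03 (SE 0.03, 95% interval -0.04 to 0.10; adjusted p = 0.622, edgeR's quasi-likelihood test; exact permutation p = 0.400).

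Hhip, a membrane protein that sequesters the ligand and is itself a target, lies at chr8:79965851-80058006 (minus strand). It was found at 3.97, 4.55, 4.57 and 5.34 CPM in control F36, F37, M30 and M31 and 4.06, 4.54, 4.74 and 4.42 CPM in stress F34, F35, M28 and M29. The stressed brains lay inside the control range. Its log2 fold change was -0.06 (SE 0.10, 95% interval -0.26 to 0.15, adjusted p = 0.783, edgeR's quasi-likelihood test).

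Smo, the transmembrane transducer that Patched restrains, lies at chr6:29735503-29761365 (plus strand). It was at 45.7, 42.3, 44.8 and 42.1 CPM in control F36, F37, M30 and M31 and at 49.0, 46.9, 48.6 and 49.5 CPM in stress F34, F35, M28 and M29. Every stressed brain exceeded every control. The means were 43.7 ± 1.81 and 48.5 ± 1.14 CPM (SD, n = 4), the log2 fold change 0.15 (SE 0.04, 95% interval 0.07 to 0.23), the adjusted p 0.0109 in edgeR's quasi-likelihood test and the exact permutation p 0.0286, the smallest that 4 against 4 brains can give. Without control F37 the adjusted p was 0.0592.

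Sufu, which holds Gli proteins in the cytoplasm, lies at chr19:46396896-46488804 (plus strand). Its values were 49.7, 45.0, 43.8 and 45.0 CPM in control F36, F37, M30 and M31 and 50.2, 44.4, 49.1 and 47.2 CPM in stress F34, F35, M28 and M29. The highest and the second highest were a stressed and a control female, and the groups overlapped. The log2 fold change was 0.06 (SE 0.04, 95% interval -0.03 to 0.15, adjusted p = 0.432, edgeR's quasi-likelihood test).

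Gli1, an activator whose transcription depends on the pathway, lies at chr10:127329882-127341974 (minus strand), and 6.55% of its exon bases overlap other genes. It was at 6.84, 5.29, 7.11 and 7.52 CPM in control F36, F37, M30 and M31 and at 6.12, 6.72, 6.90 and 6.46 CPM in stress F34, F35, M28 and M29. Control F37 was the lowest brain and control M31 the highest, so the stressed brains lay within the controls. The log2 fold change was -0.03 (SE 0.09, 95% interval -0.22 to 0.16), with an adjusted p of 0.877 in edgeR's quasi-likelihood test.

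Gli2, which acts mainly as the first activator of the pathway, lies at chr1:118834132-119053619 (minus strand). It was at 17.4, 17.3, 18.7 and 16.7 CPM in control F36, F37, M30 and M31 and at 20.9, 19.0, 20.5 and 22.0 CPM in stress F34, F35, M28 and M29. Each stressed brain was above each control, with the narrowest gap between stress F35 and control M30. The means were 17.5 ± 0.851 and 20.6 ± 1.24 CPM (SD, n = 4), the log2 fold change 0.24 (SE 0.05, 95% interval 0.12 to 0.35), the adjusted p 0.00458 in edgeR's quasi-likelihood test and the exact permutation p 0.0286. The gene was called in all 8 fits that left out 1 brain, with fold changes of 0.20 to 0.26.

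Gli3, the main repressor among the Gli factors, lies at chr13:15463235-15730026 (plus strand). It was at 37.2, 33.8, 39.7 and 37.9 CPM in control F36, F37, M30 and M31 and at 48.0, 42.6, 45.5 and 47.5 CPM in stress F34, F35, M28 and M29. The lowest stressed brain was above the highest control, in females as in males. The means were 37.1 ± 2.46 and 45.9 ± 2.44 CPM (SD, n = 4), the log2 fold change 0.31 (SE 0.04, 95% interval 0.22 to 0.40), the adjusted p 5.07e-05 in edgeR's quasi-likelihood test and the exact permutation p 0.0286. Gli3 ranked 110 by p among all genes tested. The log2 fold change was 0.36 (SE 0.06) in females and 0.26 (SE 0.06) in males, and all 8 fits without 1 brain called it, at 0.26 to 0.33.

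**Figure D2:**
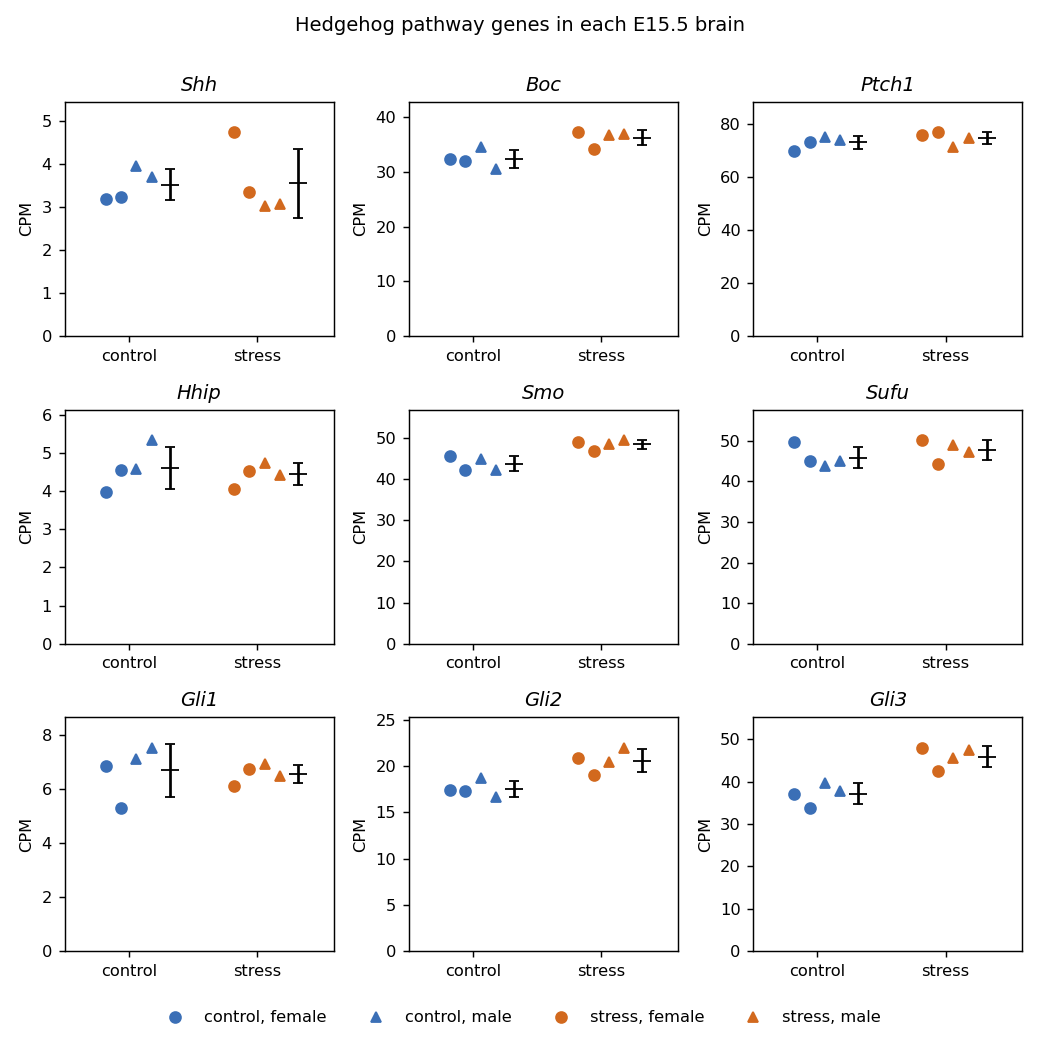
Points are CPM of single brains, circles for females and triangles for males, with the mean and SD of each group of 4 beside them and axes from 0. Gli3, Gli2 and Smo are separated by group, Boc nearly so, and Shh has 1 high stressed female at 4.74 CPM.

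**Figure D3:**
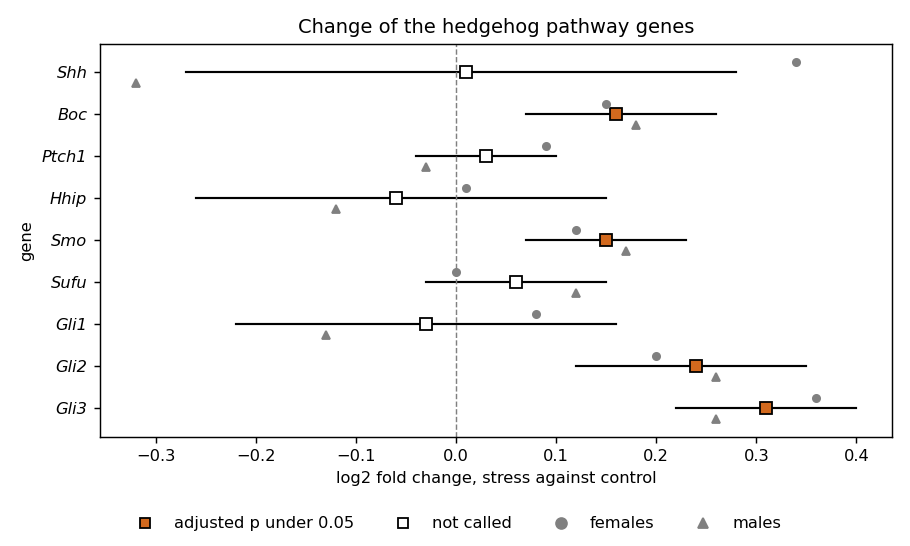
Squares are log2 fold changes of stress against control with 95% intervals, filled where the adjusted p was under 0.05, and small grey symbols give females and males fitted apart. The intervals of Gli3, Gli2, Boc and Smo lie above 0, and those of the other 5 genes include it.

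Whether the factors moved apart from the readout genes was asked with ratios of FPKM within each brain, a set of 6 ratios picked after the values had been seen. Gli3 over Ptch1 was 0.681 to 0.786 in controls and 0.819 to 0.940 in stressed brains, without overlap (exact two-sided permutation p = 0.0286, adjusted over 6 ratios 0.0858). Gli3 over Sufu went from a mean of 0.588 ± 0.0551 to 0.697 ± 0.0239 (SD, n = 4; exact permutation p = 0.0286, adjusted 0.0858). Gli3 over Gli1 was 2.62 to 3.33 in controls and 3.31 to 4.09 under stress, and here the groups touched (exact permutation p = 0.0571, adjusted 0.114). Gli2 over Gli1 was 1.61 to 2.38 in controls and 2.06 to 2.48 under stress (exact permutation p = 0.114, adjusted 0.137), and Smo over Ptch1 was 1.43 to 1.65 and 1.53 to 1.71 (exact permutation p = 0.0857, adjusted 0.129), both with overlap. Gli3 over Gli2 (1.52 ± 0.0923 against 1.6 ± 0.0427, SD, n = 4; exact permutation p = 0.200) was not separated. No ratio passed after adjustment, and with 4 against 4 brains none of the 6 could go below 0.0286 before it. Gli3 was already known to separate the groups and Ptch1 and Sufu to overlap, so the ratios to these add no separate support.

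Other genes of the pathway were read from lists of 66 genes by role, of which 62 had enough reads. Over all lists, 9 genes were called higher (14.5%) and 4 lower (6.45%) by edgeR's quasi-likelihood test, with a median log2 fold change of 0.01. Over all genes tested 6.49% were called higher and 7.27% lower, so the share of lower calls in the lists was near the background. The higher count depended on single brains and the test: it was 5 without control F36, without stress F34 or without stress M29, and 5 with DESeq2. In these fits the count over all genes also fell, from 1160 to 893, 891, 736 and 748. The lower count was 1 without control F37 or control M31 and 2 without stress F34, M28 or M29, where the count over all genes was 970, 1006, 1085, 1084 and 854 in place of 1298.

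Among genes for ligands and their release, 3 of 5 had a log2 fold change above 0. Of these 5, 0 were called higher and 1 lower, Scube1 (40.0 to 34.8 CPM, log2 fold change -0.20, adjusted p = 0.00282, edgeR's quasi-likelihood test). Scube1 is a secreted protein of the Scube family that carries lipid-bearing ligand. The other hedgehog ligands Ihh and Dhh had 3 to 14 and 5 to 17 reads per brain, too few to be tested. Among 18 genes of Smo signalling and Gli control, 10 had a log2 fold change above 0. Of the 18, 0 were called higher and 2 lower, the kinases Prkacb (-0.10, adjusted p = 0.0214, edgeR) and Grk2 (-0.08, adjusted p = 0.0471). The former is a catalytic subunit of protein kinase A, which primes Gli proteins for cutting, and the latter phosphorylates Smo.

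Of 22 primary cilium genes, 8 had a log2 fold change above 0, with a list median of -0.01, and 3 were called higher and 0 lower. Those called were Ofd1 of the centriole (log2 fold change 0.32, adjusted p = 0.000144, edgeR's quasi-likelihood test), the transport subunit Ift52 (0.16, adjusted p = 0.0122) and the transition zone gene Mks1 (0.21, adjusted p = 0.0498). The other cilium genes, with values between -0.09 and 0.16, were not called.

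Of 13 tested hedgehog target genes, 4 were called higher and 1 lower. The log2 fold change was above 0 for 8 of the 13, with a median of 0.10. Sfrp1, a secreted Wnt inhibitor, changed by 0.18 (adjusted p = 0.000249, edgeR's quasi-likelihood test), Ccnd2 by 0.13 (adjusted p = 0.00198) and Ccnd1 by 0.13 (adjusted p = 0.0324), both cyclins of the G1 phase. Mycn, a growth regulator, fell by 0.11 on the log2 scale (adjusted p = 0.0222). The remaining gene called higher, Nkx2-1 of the ventral forebrain, changed by 0.17 (adjusted p = 0.0344) and is named after its values were seen. The targets Nkx2-9 and Foxf1 had at most 2 and at most 7 reads per brain. The direct readouts Ptch1, Hhip and Gli1 were not called, and the ventral patterning factors Foxa1, Foxa2, Nkx2-2 and Nkx6-1 were not called either. Nor was Nkx6-2, with the highest log2 fold change of the list (0.32, adjusted p = 0.144, edgeR's quasi-likelihood test). Olig2 was not called (-0.07, adjusted p = 0.352), although its groups did not overlap, as for 16.4% of all tested genes.

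**Figure D4:**
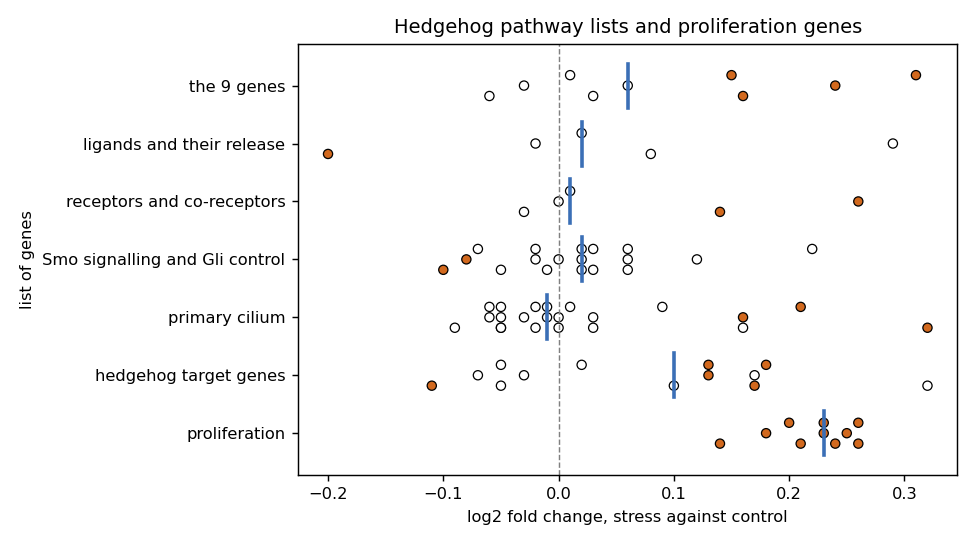
Each point is the log2 fold change of 1 tested gene, filled where the adjusted p was under 0.05, with the list median as a vertical bar. The proliferation list lies wholly to the right of 0, at a median of 0.23, while the pathway lists centre between -0.01 and 0.10.

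The genes that moved did so beside a change of the proliferation and neuronal markers and of part of the radial glia markers. All 10 proliferation genes were higher (edgeR's quasi-likelihood test, median log2 fold change 0.23; for example Top2a and Mki67), and their summed CPM was 653 to 702 in controls and 733 to 834 in stressed brains, without overlap. Of 8 radial glia genes 4 were called higher, with Vim called and Fabp7 not. Only those 4 had a log2 fold change above 0 (list median 0.05, lowest -0.10), so the list was divided in direction. The sums were 1529 to 1623 and 1559 to 1686 CPM. Of 8 neuronal genes 5 were called lower, and 1 had a log2 fold change above 0 (sums 7017 to 7268 and 6848 to 7182 CPM). Telencephalic genes were called higher for 5 of 7, with sums of 1046 to 1090 and 1120 to 1179 CPM that did not overlap, midbrain genes for 3 of 5 (71.5 to 80.5 and 84.7 to 94.9) and diencephalic genes for 2 of 5 (351 to 380 and 378 to 404). Every gene of the telencephalic, midbrain and diencephalic lists had a log2 fold change above 0. The midbrain list includes Tal2 (0.75, named after its values were seen), which the study had already picked for its large rise. Its call was thus known beforehand. In the same list En1 (0.03, adjusted p = 0.788) and En2 (0.15, adjusted p = 0.0539, edgeR's quasi-likelihood test) were not called. Hindbrain and cerebellar genes had 0 calls, although all 6 hindbrain genes had a log2 fold change below 0 (median -0.13). Hindbrain sums spread from 20.8 to 31.2 CPM in controls and from 14.3 (M28) to 33.2 CPM (F35) in stressed brains. Cerebellar sums were 51 to 59.1 and 52.3 to 55.6 CPM. The part of these shifts in the levels of Gli3, Gli2, Smo and Boc was not tested.

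Other lineages were checked for the same reason. Oligodendrocyte precursor genes were called lower for 2 of 5, Olig1 and Pdgfra (sums 117 to 129 and 104 to 109 CPM), and endothelial genes for 3 of 5 (136 to 151 and 120 to 129), both without overlap of the sums. All 5 genes of each list had a log2 fold change below 0. Mesenchymal genes were called higher for 3 of 7, the collagens Col1a1 (log2 fold change 1.59, named after its values were seen), Col3a1 (1.04) and Col1a2 (0.79). Of the 7, 5 had a log2 fold change above 0, and the lowest was -0.17. The mesenchymal sums were 17.6 to 30.6 and 22.6 to 65.2 CPM, the highest in stress M28. Of 3 choroid plexus genes, only Ttr had a log2 fold change above 0, and it was called higher. The list median was -0.20, so the list as a whole did not rise with Ttr. The list sums were 1.52 to 8.81 CPM in controls and 1.62 to 31.4 CPM in stressed brains, the highest in stress F34. Of 6 erythroid genes 1 was called higher and 1 lower, of 2 cartilage genes 1 was called higher, and pericyte, microglial and pituitary genes had 0 calls. Without stress M28, which had the highest mesenchymal sum, Gli3, Gli2, Smo and Boc were all called. Without stress F34, which had the highest choroid plexus sum, Gli3, Gli2 and Smo were called and Boc was not (adjusted p = 0.0631, edgeR). These fits show only whether a call rested on 1 brain. The part of these tissues in the levels of the 4 genes was not tested.

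Gli3 went with Cdon more closely than with any other gene over the 8 brains (Pearson's r = 0.993 among 15249 genes), followed by Tex9 (0.978) and the chromatin remodelling subunit Arid1a (0.975). These correlations run over brains of both groups and are a description only. Cdon was at 77.7, 70.8, 83.9 and 79.3 CPM in control F36, F37, M30 and M31 and 95.1, 88.9, 92.2 and 96.3 CPM in stress F34, F35, M28 and M29, with the lowest value of both genes in control F37. Among the stressed brains F35 was the lowest for both.

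**Figure D5:**
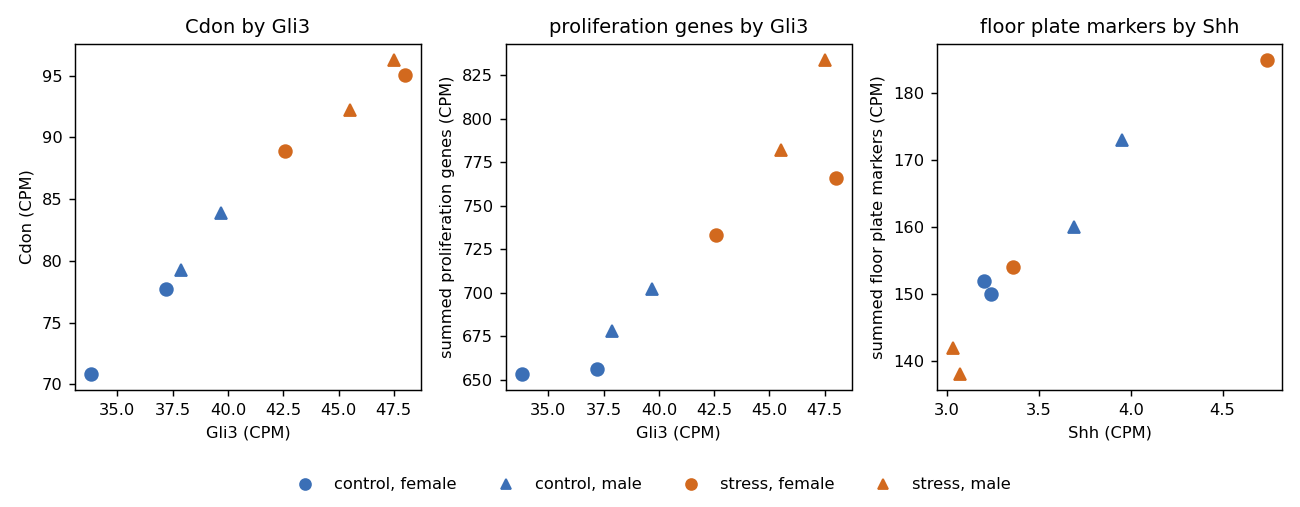
Each point is 1 brain, in CPM: Cdon against Gli3, the sum of 10 proliferation genes against Gli3, and the sum of floor plate markers against Shh. Gli3, Cdon and the proliferation sum separate the groups, while Shh and the floor plate sum place stress F34 highest and both stressed males lowest.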

How the data were processed

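RNA of 8 E15.5 brains was sequenced by the authors after oligo(dT) capture, 1 library per brain. Reads were aligned to mm10 with TopHat2 2.1.1 and counted on exons with featureCounts 1.6.3, as the submitters' processing notes and the methods give them, without strand and without options for overlapping genes or reads of several places. The deposited values are raw counts per gene. Genes were kept by filterByExpr (minimum count 10), scaled by TMM and tested with edgeR 4.0.16 quasi-likelihood fits (R 4.3.3, limma 3.58.1) of condition adjusted for sex, with Benjamini-Hochberg adjustment at 0.05; the study's model also held batch, which is not named for these libraries. Intervals are at the 95% level. Log2 CPM used a prior count of 2, and likeness was compared among genes with a mean CPM of at least 1. Exact permutation tests are two-sided. The fits were tested on simulated data.

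The genes and lists were chosen with earlier results of these data known. All 9 genes are given in every brain; of each pathway list, up to 3 called genes in each direction by p and any that was not detected; of each marker list, up to 2 by mean CPM; and the 3 genes most like Gli3 and Shh. Some genes of the lists are not reported here by name. Alternatives were DESeq2 1.42.0, other scalings, no filter, no sex term, each brain left out and each sex alone.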

Additional observations from a re-analysis of the deposited data

Results flagged for a closer look

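Among the 4 stressed brains, F35 stood apart for Boc, at 34.2 CPM against 36.7 to 37.2 CPM in the others (gap over range 0.848, limit 0.829). Chance puts about 1 in 20 groups past that limit, and 18 groups of 4 brains were examined.

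Shh had both stressed females above both control females and both stressed males below both control males, a difference of -0.66 on the log2 scale between males and females. The female side rested mainly on stress F34, as F35 was at 3.36 CPM against 3.20 and 3.24 CPM in the control females. The interaction test gave an adjusted p of 0.633 in edgeR's quasi-likelihood test.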

How the results depend on the processing

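Gli3 kept its direction and its call under every alternative run, and Gli2 under all but females alone (log2 fold change 0.20, adjusted p = 0.170, edgeR). The number of the 9 genes called higher was 1 in females alone, 3 in males alone and 3 to 4 with 1 brain left out. Pathway list genes called higher fell from 9 to 5 with DESeq2, 5 without the sex term and 4 in females alone, and were 5 to 9 with 1 brain left out; those called lower were 0 in females alone and 1 to 4 with 1 brain left out. Log2 fold changes of genes that were not called changed sign: Shh to -0.32 and Ptch1 to -0.03 in males alone, and Hhip to 0.01, Sufu to -6.5e-05 and Gli1 to 0.08 in females alone. With 1 brain left out Shh ran from -0.18 to 0.09, Hhip from -0.10 to 0.01 and Gli1 from -0.12 to 0.02. Smo and Boc were called under each other test, scaling and filter, but Boc was not called in females alone (adjusted p = 0.189, edgeR) or in males alone (0.0786), nor Smo in females alone (0.235). The causes were not tested.

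No paired analysis was possible because the groups share no replicate number. The intervals of Shh and Hhip, the genes with the lowest levels in CPM, were the widest of the 9, and the parts of depth and of spread between brains in this were not separated. With 1 litter in each group, no change can be set apart from a difference between litters.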
